A study of Mus musculus with 5 samples.

Results

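The cyclins, cyclin-dependent kinases (CDKs), E2F transcription factors and mitotic regulators were examined across 5 one-colour expression arrays of mouse embryonic stem (ES) cells and Akt-spheres. Members were taken by symbol: every probe whose platform symbol begins with Ccna, Ccnb, Ccnd, Ccne, Cenp, Bub1 or Aurk, or is Cdk, E2f or Cdc followed by a digit, without Cdc6, Cdc45 and the Cdc42 family. This gave 60 of the 16032 genes with a named probe, each represented by its brightest probe, and all 60 had a value on all 5 arrays. The rule itself reads symbols and no measured values, although it was written with earlier results of these data known.

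All cells came from the feeder-free male 129-strain ES cell line E14tg2a and carried myr-Akt-Mer, an Akt kinase that 4-hydroxytamoxifen (4OHT) switches on. Akt-spheres were floating colonies raised with 1 µM 4OHT on OP9 stromal cells by a protocol otherwise used to induce blood cells, and OP9 cells were removed by a short plating before analysis. The arrays were 1 of line 21 spheres, 1 of line 42 spheres, 1 of line 21 ES-like cells that the design text describes as reverted from spheres and that were made by transient 4OHT on mouse embryonic fibroblasts, 1 of line 21 ES cells with 1 µM 4OHT and 1 of line 21 ES cells without 4OHT. Since all 3 ES-type arrays are of line 21, and each sphere line has 1 array, a difference between the lines cannot be told apart from one between replicates.

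D-type cyclins with Cdk4 or Cdk6, and E-type cyclins with Cdk2, carry cells through G1 into DNA synthesis by phosphorylating retinoblastoma-family proteins, which frees E2F factors to act on their target genes. Cyclin A, cyclin B and Cdk1 then drive mitosis, Aurora and Bub1 kinases attach and check the chromosomes, and the anaphase-promoting complex (APC/C) with its activator Cdc20 ends it. Mouse ES cells are known for a short G1 phase, with low D-type cyclins and high cyclin E activity.

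Each array had a median intensity of about 50 over its listed probes, and no hybridisation batch is named. The summed intensity of 8 ES cell markers was 11061 and 15372 in the line 21 and line 42 spheres, and 85292 to 97820 on the ES-type arrays, although Nanog kept its level, and the sum of 8 primordial germ cell markers was 3499 and 12636 in the spheres and 1489 to 3664 on the ES-type arrays. Dppa3 made up 9198 of the line 42 sum and 223 of the line 21 sum, and without it the other 7 summed to 3276 and 3438 in spheres and 1317 to 2038 on the ES-type arrays. Dazl, Ddx4 and Prdm1 were not above the ES-type range in either line, and Kit was above it in line 21 alone. Stromal and fibroblast markers, 12 genes, summed to 2098 and 3095 in spheres and 1787 to 3084 on the ES-type arrays, so the sums overlap. Vim made up 1597 and 2815 of the sphere sums and 567 to 1869.8 of the ES-type sums. The overlap therefore rests on Vim. Of the 12 genes, limma called Acta2 and Thy1 lower in spheres and none higher. Cxcl12 was highest in line 21 spheres (109 against at most 48.9 on the ES-type arrays). Vim was highest in line 42 spheres (2815 against at most 1869.8). Thy1 entered the comparison only through the ES-type arrays, so its lower direction was fixed by the intensity filter given below. Of the adipocyte markers, 6 genes summing to 737 and 535 in spheres against 260.4 to 524 elsewhere, Fabp4 was called higher, with 183 and 143 in spheres against at most 6.07. It entered the comparison only through the spheres, so its direction was fixed by the intensity filter given below. The other markers did not all follow. Cebpa and Plin1 differed by -0.41 and 0.20 on the log2 scale, and Pparg was highest in ES cells with 4OHT (29.3). Lpl differed by 1.29, with 325 and 208 in the line 21 and line 42 spheres. It had 52.71 in reverted cells, 233 in ES cells with 4OHT and 95.49 in ES cells without 4OHT. Adipoq was dim but highest in both sphere lines, at 12.2 and 12.03, against at most 6.73 on the ES-type arrays. It lay under the intensity filter on all arrays and was not compared. The part that residual stroma plays in the values below was not tested. In bulk RNA, fewer cells of a type and less RNA per cell cannot be told apart.

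Promoters are shown for 3 mitotic genes, because the arrays below separate them: Cdc20 varied widely between arrays while Cdk1 and Ccnb2 varied less. Of the 60 members, 50 had RefSeq promoter entries (58 promoters of GRCm38.p6, each from 250 bases before to 50 bases after the transcription start). Capitals mark the cell cycle homology region (CHR) TTTGAA, the CCAAT box and its reverse complement, and the E2F site TTTNNCGC with C or G at each N, searched on both strands. The Cdk1 promoter lies at chr10:69352863-69353162 on the minus strand, that of Cdc20 at chr4:118437294-118437593 on the minus strand and that of Ccnb2 at chr9:70421505-70421804 on the minus strand.
Cdk1: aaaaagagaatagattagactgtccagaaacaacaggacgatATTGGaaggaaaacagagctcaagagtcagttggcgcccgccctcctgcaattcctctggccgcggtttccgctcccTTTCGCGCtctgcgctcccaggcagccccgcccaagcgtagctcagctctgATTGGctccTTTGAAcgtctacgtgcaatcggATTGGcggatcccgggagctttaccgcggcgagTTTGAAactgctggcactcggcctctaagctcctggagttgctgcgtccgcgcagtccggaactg
Cdc20: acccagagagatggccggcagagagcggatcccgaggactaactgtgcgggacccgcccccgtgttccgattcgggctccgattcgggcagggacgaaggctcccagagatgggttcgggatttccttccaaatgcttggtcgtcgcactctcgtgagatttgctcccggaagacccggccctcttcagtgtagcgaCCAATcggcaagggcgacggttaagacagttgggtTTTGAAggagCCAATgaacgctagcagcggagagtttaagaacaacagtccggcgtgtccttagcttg
Ccnb2: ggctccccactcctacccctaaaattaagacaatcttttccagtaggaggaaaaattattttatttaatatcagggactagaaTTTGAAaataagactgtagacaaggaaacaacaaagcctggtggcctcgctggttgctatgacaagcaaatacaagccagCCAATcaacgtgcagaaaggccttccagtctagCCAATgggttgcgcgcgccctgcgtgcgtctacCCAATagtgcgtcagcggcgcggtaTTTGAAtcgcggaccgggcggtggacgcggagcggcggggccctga
All 3 promoters hold CHR and CCAAT matches, and the Cdk1 promoter also holds an E2F match that begins 131 bases upstream of the start. Over the members' promoters, E2F letters occurred in 10.3% (in E2f2, E2f3, E2f7, Cdc25a, Cdk1 and Cdk2), against 2.26% of 32851 promoters in all. CHR letters occurred in 31.0% of members' promoters and 17.9% of all, and CCAAT in 55.2% and 37.4%. A match describes these letters and does not show a bound site.

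Ccnd2, the D-type cyclin that pairs with Cdk4 and Cdk6, stood furthest apart of the members. Its intensity was 4300.3 in line 21 spheres and 945 in line 42 spheres, against 214 in reverted cells, 57.9 in ES cells with 4OHT and 108 in ES cells without 4OHT. Both sphere lines lay above all 3 ES-type arrays, and the line 21 value was the highest. The log2 difference, spheres minus the 3 ES-type arrays, was 4.18 ± 0.80 (SE, 2 against 3 arrays), an 18.1-fold difference, with 5.30 in line 21 and 3.06 in line 42. With an adjusted p of 0.060 in limma it missed the threshold of 0.05, and when single arrays were left out the adjusted p ran from 0.0556 to 0.208.

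The other D-type cyclin measured, Ccnd3, differed little, with an intensity of 680.0 in line 21 spheres and 1009 in line 42 spheres, against 552 in reverted cells, 769.9 in ES cells with 4OHT and 663 in ES cells without 4OHT. Its values overlapped between the groups. Ccnd1 had no probe among the members, so it was not compared. The kinase partners were near level too: Cdk4 had 6967 in line 21 spheres and 5909 in line 42 spheres, against 7105 in reverted cells, 8603 in ES cells with 4OHT and 7519 in ES cells without 4OHT, and Cdk6 had 105 and 90.9 in the line 21 and line 42 spheres, against 108, 82.7 and 99.2 in reverted cells and ES cells with and without 4OHT. Their log2 differences were -0.26 for Cdk4 and 0.03 for Cdk6. Ccndbp1, a protein that binds D-type cyclins, differed by -0.25 and had no clear separation, since its line 21 sphere intensity of 524 exceeds the 513 of ES cells without 4OHT before the arrays are centred.

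**Figure D1:**
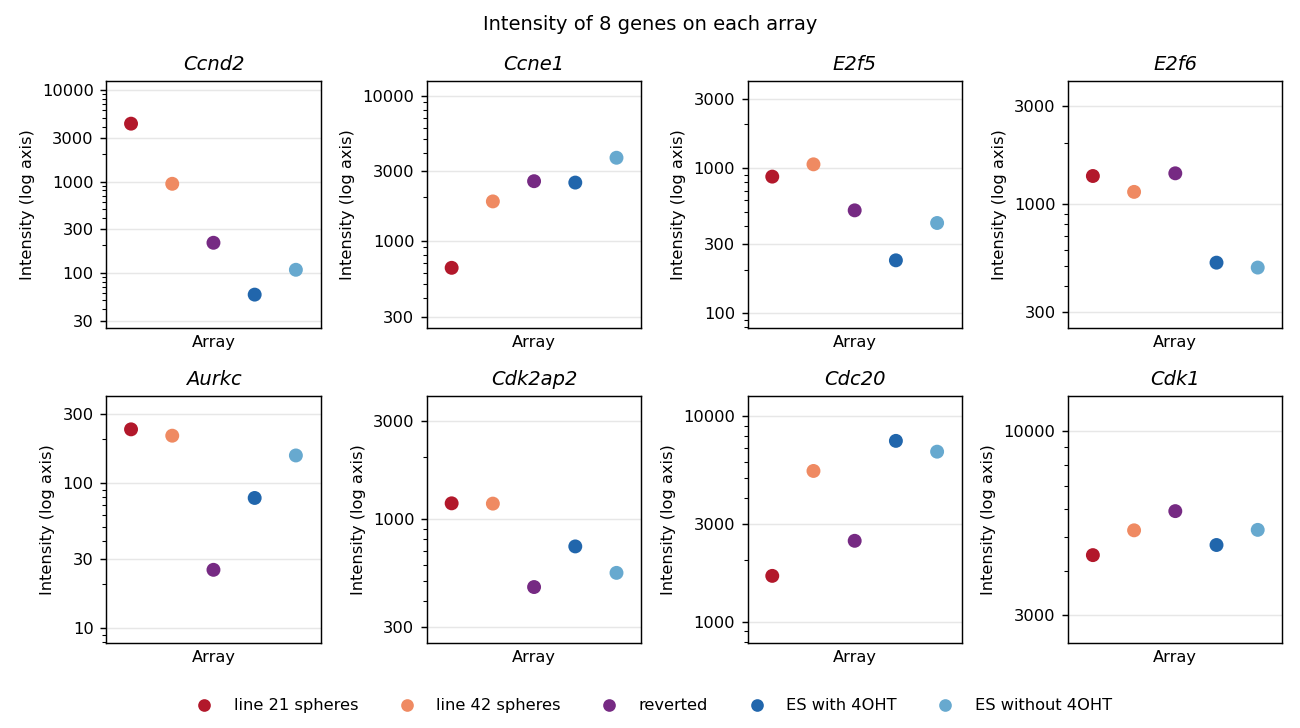
Deposited intensity (log axis) of 8 members, one panel per gene and one point per array, with the 2 sphere lines at the left and the 3 ES-type arrays to their right. Ccnd2 reaches 4300.3 in line 21 spheres against 57.9 in ES cells with 4OHT, Ccne1 is lowest in line 21 spheres, and Cdk1 stays between 4449 and 5931.

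Ccne1, the E-type cyclin that activates Cdk2 at the start of DNA synthesis, was measured at 650.4 in line 21 spheres and 1865 in line 42 spheres, against 2570.2 in reverted cells, 2514 in ES cells with 4OHT and 3728 in ES cells without 4OHT. Both sphere lines were below every ES-type array, line 21 by more. The log2 difference was -1.39 ± 0.48 (SE), with -2.12 in line 21 and -0.65 in line 42, and the adjusted p of 0.206 missed the threshold. Its paralog Ccne2 did not follow: it had 262 in line 21 spheres and 130.5 in line 42 spheres, against 175 in reverted cells, 93.8 in ES cells with 4OHT and 154 in ES cells without 4OHT, with line 21 spheres highest and line 42 spheres inside the range of the ES-type arrays. Cdk2 had 119 and 181 in the line 21 and line 42 spheres, against 132, 150.2 and 141 in reverted cells and ES cells with and without 4OHT, and its 2 sphere values enclosed all 3 others.

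Cdk2ap2, named for association with Cdk2, had an intensity of 1195 in line 21 spheres and 1192 in line 42 spheres, against 468 in reverted cells, 738 in ES cells with 4OHT and 549 in ES cells without 4OHT. The 2 sphere lines differed by less than 4 units and lay above all ES-type arrays, at a log2 difference of 1.06 ± 0.26 (SE) and an adjusted p of 0.110.

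The S-phase and mitotic cyclins Ccna2 and Ccnb2 differed by 0.22 and 0.45 on the log2 scale. Ccnb1 had no probe among the members, so it was not compared. Ccna2, cyclin A2, had 3754 in line 21 spheres and 4455 in line 42 spheres, against 3663 in reverted cells, 3522 in ES cells with 4OHT and 3391 in ES cells without 4OHT, and both sphere values were above the others by a small margin (log2 difference 0.22, adjusted p = 0.651). Ccnb2, a partner of Cdk1, had 2738 in line 21 spheres and 3987 in line 42 spheres, against 2228 in reverted cells, 3020.5 in ES cells with 4OHT and 2113 in ES cells without 4OHT. Line 42 spheres were highest, while line 21 spheres fell inside the ES-type range.

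Cdk1, the kinase of mitotic entry, had 4449 in line 21 spheres and 5232 in line 42 spheres, against 5931 in reverted cells, 4753 in ES cells with 4OHT and 5247 in ES cells without 4OHT. The groups overlapped and the log2 difference was -0.13 (adjusted p = 0.822). The Cdc25 phosphatases activate CDKs by removing inhibitory phosphates. Cdc25a had 189 and 185 in the line 21 and line 42 spheres, against 281, 196 and 205 in reverted cells and ES cells with and without 4OHT, a small gap that centring the arrays closes, and Cdc25b had 341 and 218 in the line 21 and line 42 spheres, against 240.4, 158 and 249 in reverted cells and ES cells with and without 4OHT.
Of the Cdc14 phosphatases, Cdc14a was dim. It lay between 7.44 and 13.4 on 4 arrays and at 37.8 in ES cells with 4OHT, and it entered the comparisons only through that array, so a higher value there was fixed by the filter. Cdc14b had 76.3 and 25.6 in the line 21 and line 42 spheres, against 100.1, 42.0 and 66.6 in reverted cells and ES cells with and without 4OHT, lowest in line 42 spheres and highest in reverted cells.

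Among E2F factors, E2f5, which acts with the pocket protein p130 as a repressor, had 874 in line 21 spheres and 1062 in line 42 spheres, against 512 in reverted cells, 232 in ES cells with 4OHT and 419 in ES cells without 4OHT. Spheres exceeded all ES-type arrays in both lines. The log2 difference was 1.39 ± 0.40 (SE), a 2.62-fold difference, at an adjusted p of 0.143. E2f1, an activator, had 336 in line 21 spheres and 239 in line 42 spheres, against 148 in reverted cells, 173 in ES cells with 4OHT and 146 in ES cells without 4OHT, again with both sphere lines above the rest, by 0.87 ± 0.26 (SE, adjusted p = 0.154).

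E2f6, a repressor that lacks a pocket-protein binding domain and that silences germ-cell genes in mice, showed a different order. Its intensity was 1374 in line 21 spheres and 1151 in line 42 spheres, against 1417 in reverted cells, 521 in ES cells with 4OHT and 493 in ES cells without 4OHT. Reverted cells matched or exceeded both sphere lines, and only the 2 ES arrays were low. The log2 difference was 0.82 with all 3 ES-type arrays (adjusted p = 0.435) and 1.30 without the reverted array (adjusted p = 0.0753).

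On centred values the remaining E2Fs did not separate the groups. E2f3, an activator, had 131 and 120.2 in the line 21 and line 42 spheres, against 114, 99.2 and 115 in reverted cells and ES cells with and without 4OHT. E2f4, a repressor, had 66.9 and 109 in the line 21 and line 42 spheres, against 129, 104 and 134 in reverted cells and ES cells with and without 4OHT, and line 21 spheres were its lowest array. E2f2 stayed between 30.3 and 51.7 on all arrays, while E2f7 and E2f8 were under the filter described with the dim members. For the 6 E2Fs compared, the median log2 difference was 0.51, against 0.10 over the 53 members compared and 0.00 over all 10589 genes compared.

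Cdc20, which activates the APC/C, had 1678 in line 21 spheres and 5432 in line 42 spheres, against 2485 in reverted cells, 7607 in ES cells with 4OHT and 6741 in ES cells without 4OHT. The low arrays were line 21 spheres and reverted cells, while line 42 spheres stood with the 2 ES arrays. The overall log2 difference of -0.73 (adjusted p = 0.623) covered -1.55 in line 21 and 0.09 in line 42.

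The APC/C subunits did not move with it. Cdc16 had 836 in line 21 spheres and 964 in line 42 spheres, against 606 in reverted cells, 532 in ES cells with 4OHT and 466 in ES cells without 4OHT, with both sphere lines above the rest (log2 difference 0.76 ± 0.23, SE, adjusted p = 0.155). Cdc27 had 296 and 123 in the line 21 and line 42 spheres, against 187, 248 and 247 in reverted cells and ES cells with and without 4OHT, where line 21 spheres were the highest array and line 42 spheres the lowest. Cdc23 differed by 0.31, and Cdc34, the ubiquitin-conjugating enzyme of the SCF ligases, by 0.15, with overlapping groups for both.

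The Aurora kinases split. Aurkc, the Aurora kinase of germ cells and early embryos, had 234 in line 21 spheres and 212 in line 42 spheres, against 25.2 in reverted cells, 78.8 in ES cells with 4OHT and 155 in ES cells without 4OHT. Both sphere lines were highest and reverted cells lowest, and the log2 difference was 1.70 ± 0.74 (SE, adjusted p = 0.289). It was 1.00 without the reverted array. Aurka, the spindle pole kinase, had 3161 and 5195 in the line 21 and line 42 spheres, against 2533, 6280.3 and 4056 in reverted cells and ES cells with and without 4OHT, and Aurkb, the kinase of the chromosomal passenger complex, had 1679 and 1787 in the line 21 and line 42 spheres, against 1240.3, 1599 and 2019.9 in reverted cells and ES cells with and without 4OHT. The groups overlapped for both, at log2 differences of 0.02 and 0.13.

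Bub1 and Bub1b encode spindle checkpoint kinases. Bub1 had 1620.2 in line 21 spheres and 566 in line 42 spheres, against 1082 in reverted cells, 787 in ES cells with 4OHT and 856 in ES cells without 4OHT. Line 21 spheres were its highest array and line 42 spheres its lowest. Bub1b was lower in both sphere lines, with 658 in line 21 spheres and 581 in line 42 spheres, against 1015 in reverted cells, 876 in ES cells with 4OHT and 859 in ES cells without 4OHT (log2 difference -0.56 ± 0.23, SE, adjusted p = 0.262).

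The centromere genes stayed within 2-fold of the ES-type mean in the average of the spheres. Cenpa, the histone variant that marks centromeres, had 4487 and 7719 in the line 21 and line 42 spheres, against 4409, 5827 and 6436 in reverted cells and ES cells with and without 4OHT. Cenpf, a kinetochore protein of late cell cycle stages, had 1183 and 779.7 in the line 21 and line 42 spheres, against 649.5, 635 and 684 in reverted cells and ES cells with and without 4OHT, with both sphere lines highest (log2 difference 0.55, adjusted p = 0.351). Cenpe, a kinetochore motor, had 238 and 103 in the line 21 and line 42 spheres, against 178, 311 and 213 in reverted cells and ES cells with and without 4OHT, with line 42 spheres lowest. Cenph and Cenpc1 of the inner kinetochore differed by -0.19 and 0.29, and Cenpj of the centriole by -0.06.

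Several genes that carry Cdc or Cdk names act outside the cycle. Some of these differed more than the cyclins Ccnd3, Ccne2, Ccna2 and Ccnb2, though less than Ccnd2 and Ccne1. Cdc5l, a spliceosome protein, had 2091 in line 21 spheres and 1476 in line 42 spheres, against 3498 in reverted cells, 3619 in ES cells with 4OHT and 3889.6 in ES cells without 4OHT. Both sphere lines were below all ES-type arrays, at a log2 difference of -1.06 ± 0.27 (SE, adjusted p = 0.110). Cdc40, also a spliceosome protein, lay the other way, with 299 in line 21 spheres and 267 in line 42 spheres, against 218 in reverted cells, 137 in ES cells with 4OHT and 162 in ES cells without 4OHT (log2 difference 0.74, adjusted p = 0.243).
Cdk13, a kinase of RNA polymerase II, had 37.2 and 63.4 in the line 21 and line 42 spheres, against 34.9, 33.6 and 25.6 in reverted cells and ES cells with and without 4OHT, and Cdk8, a Mediator kinase, had 1218 and 749 in the line 21 and line 42 spheres, against 772, 662 and 786 in reverted cells and ES cells with and without 4OHT. Cdk13 was higher in both sphere lines and Cdk8 in line 21 alone. Cdk9, Cdk10, Cdk11b, Cdk19 and Cdc73 differed by -0.25 to 0.17. Cdc37 is a co-chaperone of kinases and differed by -0.28, whereas its relative Cdc37l1 had 366 in line 21 spheres and 356 in line 42 spheres, against 704 in reverted cells, 559.9 in ES cells with 4OHT and 591 in ES cells without 4OHT, lower in both sphere lines (log2 difference -0.76, adjusted p = 0.158). Cdk5, the kinase of neurons, and Pigu, of glycosylphosphatidylinositol anchor attachment, differed by 0.41 and 0.40, and for both the reverted array lay close to the lower sphere value.

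A gene entered a comparison when it reached the 40th percentile of at least 1 array compared, an intensity of 28.6 to 29.3. The 7 members that did not were Cdk3 (a pseudogene in the RefSeq table), Ccna1, Ccnb3, E2f7, E2f8, Cdk5rap2 and Cdc7, the kinase that fires replication origins. Their intensities ran from 4.57 to 28.5, so levels of these genes were not compared.

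**Figure D2:**
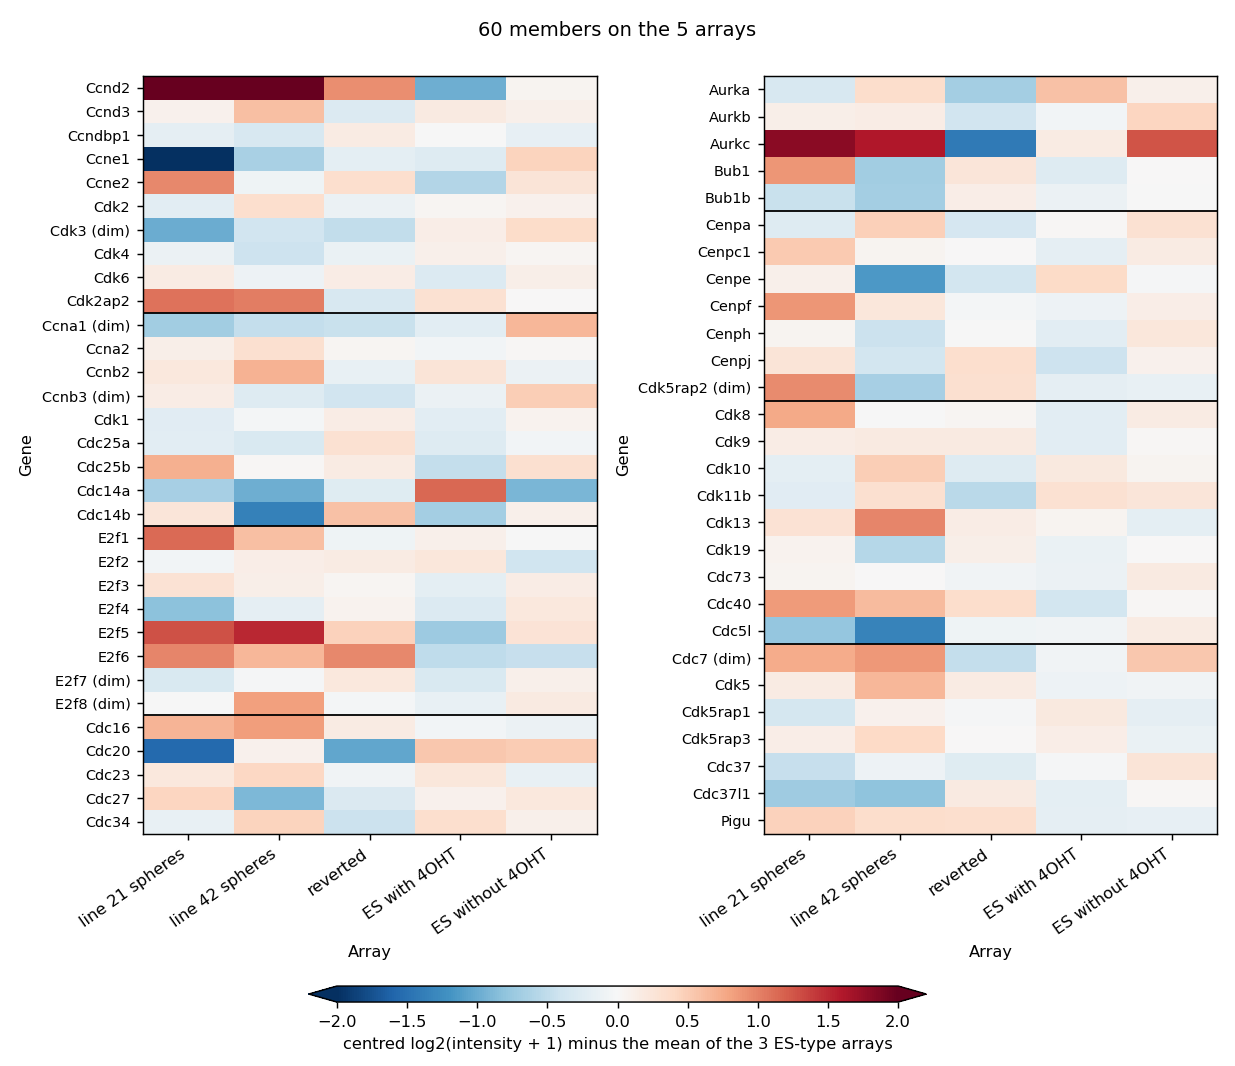
All 60 members by array (colour, centred log2(intensity + 1) minus the mean of the 3 ES-type arrays), ordered by role with lines between roles and the 7 dim members marked. Ccnd2, Aurkc, Cdk2ap2 and E2f5 are red in both sphere columns, and Ccne1 and Cdc5l are blue in both.

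Against the 3 ES-type arrays together, limma called 0 of the 53 members compared, where 2.44% of the 10589 genes were called (102 higher and 156 lower). At an unadjusted p under 0.05, 10 members passed (18.9%), the same share as the 18.9% of all genes. The 6 higher were Ccnd2, Cdc16, Cdc40, Cdk2ap2, E2f1 and E2f5, and the 4 lower were Bub1b, Ccne1, Cdc37l1 and Cdc5l. On centred values the groups did not overlap for 18 members (34.0%), against 37.5% of all genes. Of the 18, 13 were higher in spheres (24.5% against 19.1%) and 5 lower (9.43% against 18.5%). Cdk5 and Cdk5rap3 among the higher, and Ccndbp1 among the lower, overlap in deposited intensity. Cdk5 had 366 in line 21 spheres and 379 in reverted cells. Cdk5rap3 had 913 in line 21 spheres and 968 in ES cells with 4OHT. Both sphere lines were at least 2-fold above the ES-type mean for 4 members (7.55% against 3.83%), Aurkc, Ccnd2, Cdk2ap2 and E2f5, and 2-fold below it for 0 (against 5.21%), together 7.55% against 9.05% of all genes. In sum over both directions each share lies at or below its background, and within that the members lean to higher rather than lower, a lean that was not tested.

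The members' spread was also close to that of all genes. Their log2 differences had a median of 0.10 and quartiles of -0.25 and 0.40, against 0.00, -0.36 and 0.35 over all genes compared. The median absolute difference was 0.31 for members and 0.35 for all genes, and 47 of the 53 members (88.7%) lay within 2-fold, against 84.9%.

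**Figure D3:**
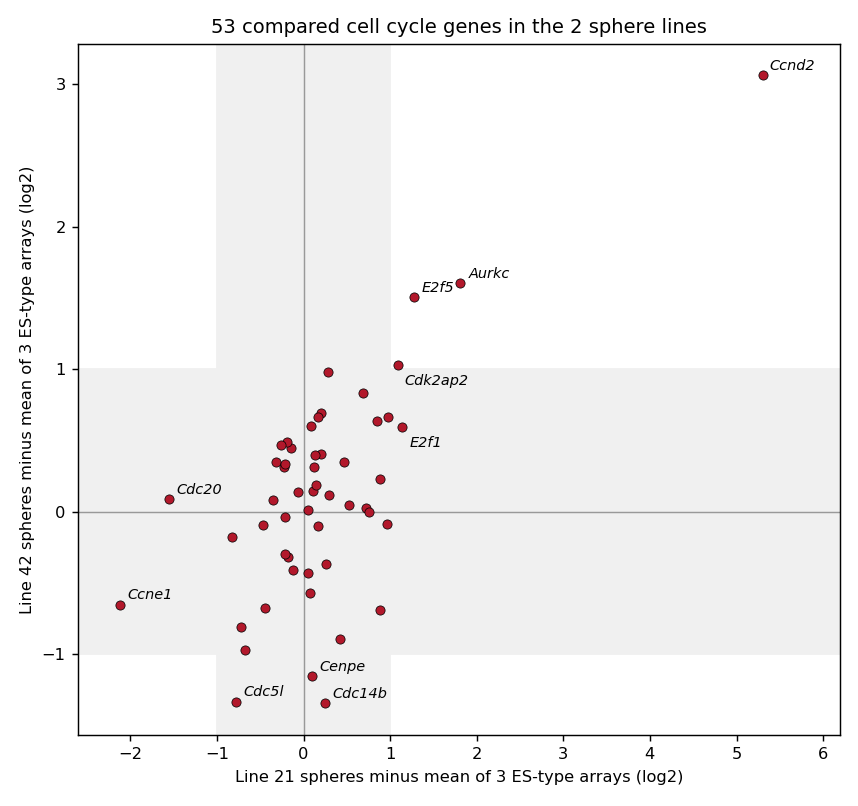
Log2 difference from the mean of the 3 ES-type arrays in line 21 spheres (x axis) and line 42 spheres (y axis) for the 53 members compared, one point per gene, with the band within 2-fold shaded. Ccnd2 lies at 5.30 and 3.06, far from the rest, and Ccne1 and Cdc20 depart further in line 21 than in line 42.

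The spheres were then set against each ES-type array alone, comparisons that share the 2 sphere arrays. Here a member counts when both lines differ by at least 2-fold the same way, and limma, whose only measure of spread is the pair of sphere arrays, called 0 members and 0 genes in each (at an unadjusted p under 0.05 it passed 1212 genes with the 4OHT-treated ES array, 964 with the untreated one and 920 with the reverted one). Against ES cells with 4OHT, 4 of 53 members were higher (7.55%, against 5.98% of genes), namely Aurkc, Ccnd2, E2f5 and E2f6, at log2 differences of 1.55, 5.16, 2.11 and 1.33. The only member counted lower was Cdc14a, beside 6.86% of genes lower and 12.8% in either direction, and nothing is read from it, since it passed the filter only through the 4OHT array.
Against ES cells without 4OHT, 5 of 52 members counted, where 10.5% of genes did (4.51% higher and 6.01% lower). Ccnd2 (4.13), E2f6 (1.27), E2f5 (1.13) and Cdk2ap2 (1.04) were higher and Ccne1 (-1.83) was lower. The Ccne1 count rests on line 42, at -1.10, and is lost with no centring or with quantile normalization. Of the higher members, E2f5 was only 1.01 in line 21 and Cdk2ap2 only 1.02 in line 42. With a pseudocount of 16 the number higher falls to 3.
Against reverted cells, 3 of 52 members counted, beside 10.0% of genes (4.21% higher and 5.81% lower), and all were higher: Ccnd2 (3.26), Aurkc (3.12) and Cdk2ap2 (1.37). Aurkc lay under the filter on the reverted array (25.2, against a 40th percentile of 28.6) and entered only through the spheres. The direction of Aurkc was thus fixed, and nothing is read from it. E2f6 does not count against reverted cells, since these had about the level of the spheres.

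Line 21 spheres and ES cells with 4OHT share both line and drug, so neither differs between them, and the comparison has no replicate check. Of 53 members, 9 were at least 2-fold higher (Ccnd2 6.28, E2f5 2.00, Aurkc 1.65, Ccne2 1.56, E2f6 1.49, Cdc40 1.21, Cdc25b 1.20, Bub1 1.13 and E2f1 1.04) and 3 lower (Cdc20 -2.09, Ccne1 -1.86 and Cdc14a, which passed the filter only where it was high), together 22.6% against 26.5% of genes (12.7% higher and 13.8% lower).

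ES cells with 4OHT against ES cells without it show the members with Akt-Mer active and no sphere culture, on 1 array each. Of 53 members, 2 were at least 2-fold lower (Aurkc -1.10 and Ccnd2 -1.03), beside 4.95% of genes in either direction (2.56% higher and 2.40% lower). The only member counted higher was Cdc14a, which passed the filter only through the 4OHT array, where it is high, so its direction was fixed and nothing is read from it. E2f5 was next, at -0.99. For Ccnd2, Aurkc and E2f5 the 4OHT array was thus below the untreated one, while both sphere arrays, also in 4OHT, were above both. The 2 lower calls fall under 2-fold with no centring, with quantile normalization and with a pseudocount of 16.

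In reverted cells against ES cells without 4OHT, 1 of 52 members was at least 2-fold higher (E2f6, 1.42) and 2 were lower (Aurkc -2.67 and Cdc20 -1.54), beside 11.5% of genes (5.18% higher and 6.34% lower). Aurkc passed the filter only through the ES array, where it is high, so its direction was fixed and nothing is read from it. Ccnd2 was 0.88 higher, between the spheres and the ES cells. Aurka, Aurkb and Cdk11b were each lower by less than 2-fold (-0.78, -0.80 and -0.78).

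**Figure D4:**
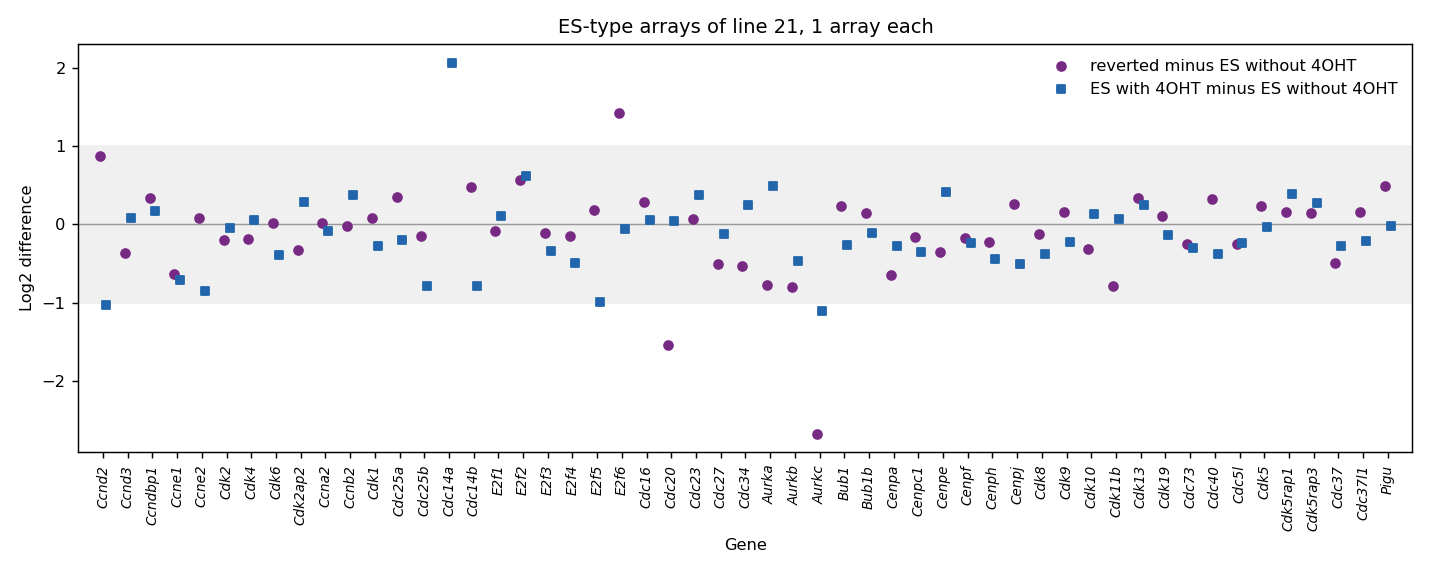
Log2 difference of reverted cells (circles) and of ES cells with 4OHT (squares) from ES cells without 4OHT, by gene, 1 array each, with the band within 2-fold shaded. Aurkc (-2.67) and Cdc20 (-1.54) are low and E2f6 (1.42) is high in reverted cells, and Cdc14a (2.06), above the band with 4OHT, passed the filter only through that array. For reverted cells, Aurkc passed the filter only through the array of ES cells without 4OHT, where it is high.

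The 2 sphere lines differed from each other on 1 array each. Line 42 spheres were at least 2-fold above line 21 spheres for Cdc20 (1.64) and Ccne1 (1.47), and at least 2-fold below them for Ccnd2 (-2.24), Cdc14b (-1.59), Bub1 (-1.57), Cdc27 (-1.32), Cenpe (-1.25) and Ccne2 (-1.06). These 8 of 52 members are 15.4%, beside 15.7% of all genes (7.87% higher and 7.81% lower). Cdc14b, at 25.6 in line 42 spheres, passed the filter only through line 21 spheres, so its direction was fixed and nothing is read from it. Line 21 had more Ccnd2 and less Ccne1 than line 42, and both lines lay on the same side of the ES-type arrays for the pair.

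Other cell cycle genes, a list of 123 drawn from CDK inhibitors, pocket proteins, checkpoint, cohesin, condensin and ubiquitin ligase components and proliferation markers, had 110 genes on the array and 104 compared. The limma test called 0 of them. Both sphere lines were at least 2-fold above the ES-type mean for Cdkn1a and Ccnt2, and 2-fold below it for Cdkn2a and Mybl2, that is 1.92% in each direction, against 3.83% of all genes higher and 5.21% lower. The list's median was 0.12 against 0.00 over all genes, and these shares lie below the background, so the values of the 4 genes are given as a description.
Cdkn1a, the p21 inhibitor of CDKs, had 981 and 1701 in the line 21 and line 42 spheres, against 863, 692 and 199 in reverted cells and ES cells with and without 4OHT (log2 difference 1.39, adjusted p = 0.306). Cdkn2a, the locus of p16 and p19, had 30.3 and 14.6 in the line 21 and line 42 spheres, against 37.9, 111 and 81.2 in reverted cells and ES cells with and without 4OHT (-1.68, adjusted p = 0.176). Mybl2, a partner of the MuvB complex at mitotic genes, had 269 and 557 in the line 21 and line 42 spheres, against 1008, 1128 and 1272 in reverted cells and ES cells with and without 4OHT (-1.54 ± 0.36, SE, adjusted p = 0.0912). Each had both sphere lines on one side of the ES-type arrays.
Ccnt2, the cyclin partner of Cdk9, had 214 and 297 in the line 21 and line 42 spheres, against 138, 86.6 and 92.3 in reverted cells and ES cells with and without 4OHT (1.28, adjusted p = 0.096), while Cdk9 itself differed by 0.17. Medians of the smaller lists ran from -0.33 for kinases that activate or inhibit CDKs to 0.50 for the CDK inhibitors, of which only 4 were compared. The proliferation markers had a median of 0.17, and their member Mki67 had 978 and 647 in the line 21 and line 42 spheres, against 505, 485 and 535 in reverted cells and ES cells with and without 4OHT.

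**Figure D5:**
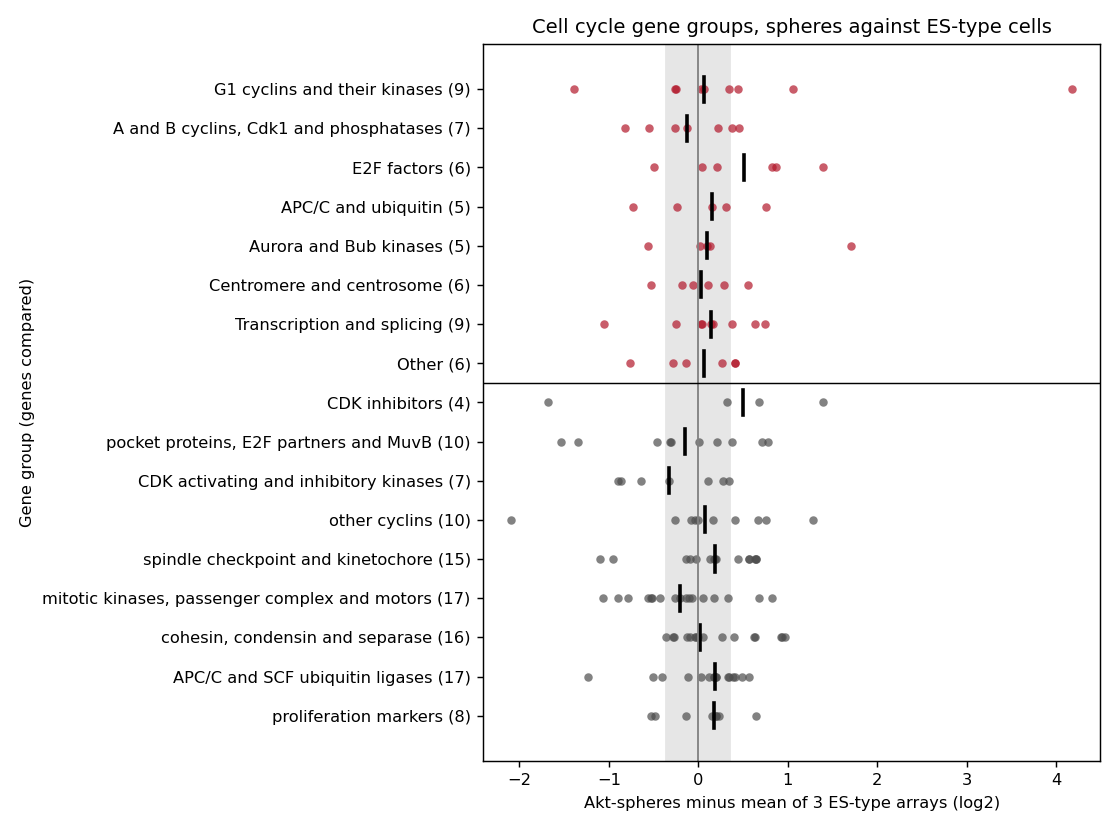
Log2 difference, spheres minus the mean of the 3 ES-type arrays, for each compared gene (points) by role, members above the line and the other cell cycle lists below it, with the number of genes in brackets, bars at the medians and the range between the quartiles of all genes shaded. Most points lie near 0, and Ccnd2 (4.18) is the point furthest to the right.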

How the data were processed

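Intensity values as deposited by the authors, linear and for 22871 probes per array, came from 5 one-colour Toray arrays (Cy5, per the labels). For scanner settings, background correction and normalization the method is not given in the sources used here. Cells with no value were left empty. Only the spheres had more than 1 array, and the labels do not say that cultures were repeated, so a p-value here covers the spread between these arrays alone, possibly technical in part. Precision is limited by the small number of arrays.

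With a pseudocount of 1, values were put on the log2(value + 1) scale and arrays were centred on the median of the 18884 probes that all arrays list. Genes entered a comparison at the 40th percentile of at least 1 array. Platform symbols were updated through the RefSeq table of GRCm38.p6 (Cdc2a to Cdk1, Cdc2l1 to Cdk11b, Cdc2l5 to Cdk13, Cdc2l6 to Cdk19 and Cdc91l1 to Pigu, each matched by its platform name), and Cdc45l was left out as Cdc45. For each gene the probe with the highest mean was used. limma 3.58.1 in R 4.3.3 (lmFit, eBayes, Benjamini-Hochberg over all genes compared, threshold 0.05) was fitted with 2 groups and 3 residual degrees of freedom for spheres against the 3 ES-type arrays, and with 4 groups and 1 residual degree of freedom for spheres against each ES-type array. Its spread in the 2-group fit also holds the differences between the ES-type conditions. Single arrays were compared by a 2-fold threshold with no test. Fold values understate dim genes.

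The members and lists were chosen with earlier results of these data known. Genes named are the D, E, A and B cyclins, Cdk1, Cdk2, Cdk4, Cdk6, the E2Fs, Cdc25s, Aurora kinases, Bub1 and Bub1b, the members furthest from 0 and those past a threshold in each comparison, and others by role. Genes of nearest pattern were not sought, since 5 arrays are under the 6 needed for a correlation. Alternatives were pseudocount 16, quantile normalization, no centring, empty cells at the lowest value, the mean of all probes, no filter, a 60th percentile filter, limma with an intensity trend, limma on single arrays with the spread of the 2 sphere arrays, and leaving out each array.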

Additional observations from a re-analysis of the deposited data

Results flagged for a closer look

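For 3 of the 53 members compared (5.66%), the 2 sphere lines lay on opposite sides of all 3 ES-type arrays, beside 981 of 10589 genes (9.26%). Bub1, the checkpoint kinase, was 0.88 above the ES-type mean in line 21 spheres and -0.69 from it in line 42 spheres, on the log2 scale. Cdc27, an APC/C subunit, was at 0.42 in line 21 and -0.89 in line 42. Cdk2 was at -0.21 in line 21 and 0.33 in line 42. With 1 array per line the difference between the lines was not tested, and the ES-type arrays that both are set against are shared and all of line 21.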

How the results depend on the processing

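Against the 3 ES-type arrays, limma called 0 members under every alternative run, while genes called went from 258 to between 0 and 284 on leaving out 1 array, with 148 without line 21 spheres, 98 without line 42 spheres, 32 without ES cells with 4OHT and 0 without ES cells without 4OHT. Against ES cells without 4OHT, members at least 2-fold higher went from 4 to 3 with pseudocount 16 and to 5 on either sphere line. Members lower went from 1 to 0 with quantile normalization or no centring, to 2 with no filter and to 3 to 5 on 1 sphere line. Genes were 1082, and 1890 to 2266 on 1 sphere line. Against ES cells with 4OHT, members higher were 4, and 4 to 9 on 1 sphere line, members lower from 1 to 0 with the stricter filter and to 3 on either line, and genes were 1336, and 2132 to 2702. Against reverted cells, members higher were 3, and 4 to 6 on 1 sphere line, members lower were 0, and 1 to 2, and genes were 1035, and 1705 to 2284; a single line meets the 2-fold rule more easily than both. For ES cells with against without 4OHT, the member that was higher was lost with the stricter filter and with limma, leaving 0, and the 2 that were lower became 0 with pseudocount 16, quantile normalization, no centring and limma. Genes there went from 488 to 311 with pseudocount 16, 752 with no filter, 313 with the stricter filter and 0 with limma (136 at an unadjusted p under 0.05). Of them 252 were higher and 236 lower, against 363 and 166 with no centring and 348 and 173 with quantile normalization, where the median of all genes was 0.11 and 0.09. For reverted cells against ES cells without 4OHT, members higher went from 1 to 0 with limma, members lower from 2 to 4 with no filter and 0 with limma, and genes from 1145 to 0 with limma (306 at an unadjusted p under 0.05), and the median of all genes was 0.10 with no centring and 0.11 with quantile normalization. The log2 difference of spheres from the 3 ES-type arrays changed sign on leaving out 1 array for 21 members, with ranges of Aurka -0.32 to 0.35, Aurkb -0.060 to 0.34, Bub1 -0.69 to 0.88, Ccne2 -0.087 to 0.97, Cdc14b -1.35 to 0.25, Cdc20 -1.55 to 0.088, Cdc27 -0.89 to 0.42, Cdc34 -0.15 to 0.45, Cdc73 -0.026 to 0.13, Cdk10 -0.20 to 0.49, Cdk11b -0.23 to 0.32, Cdk19 -0.57 to 0.076, Cdk2 -0.21 to 0.33, Cdk5rap1 -0.36 to 0.082, Cdk6 -0.11 to 0.16, Cdk8 -0.0022 to 0.75, Cenpa -0.26 to 0.47, Cenpe -1.15 to 0.10, Cenph -0.43 to 0.057, Cenpj -0.37 to 0.26 and E2f2 -0.16 to 0.15. The cause was not tested. No paired analysis by cell line was possible, because line 42 has no ES-type array. The number of arrays, 5, limits every result, and dim probes have the least signal over background.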

Other observations

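Cdkn1c, the p57 inhibitor of CDKs and an imprinted gene, was chosen after its values were seen. It had no value in line 21 spheres and an intensity of 2790.4 in line 42 spheres, against 20.0 in reverted cells, 3171 in ES cells with 4OHT and 1367 in ES cells without 4OHT. The empty cell kept it out of the comparisons that use line 21 spheres.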
